A study of Mus musculus with 3 samples.

Results

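Regulatory T cells of lung carcinoma lesions in mice were picked by transcript: a barcode was a member where it held at least 1 unique molecular identifier (UMI, a tag that marks 1 captured transcript) of Foxp3, at least 1 of Cd3d, Cd3e or Cd3g and none of Cd8a or Cd8b1. A member also had to have at least 200 genes, at most 20% mitochondrial UMIs, at most 1 UMI over C1qa, C1qb and C1qc and at most 2 over Krt8 and Krt18. The rule found 74 cells among 32801 barcodes that passed the filters on genes and mitochondrial share, of 33482 in all. There were 14 in the library labelled CKO+RI, 41 in the library labelled Flox+RI and 19 in the library labelled Flox+ICI.

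All 3 libraries came from mice that carried Lewis lung carcinoma cells (LLC1-sgLkb1, a mouse lung cancer line in which the kinase LKB1 is knocked down). Lesions were seeded in the lung through the tail vein as the unirradiated side, and a subcutaneous tumour placed 3 weeks later was the irradiated side. CKO+RI is the host Sfrp2ΔCol1a2, in which Sfrp2, a secreted modulator of Wnt signalling, is deleted under the Col1a2 promoter, active chiefly in fibroblasts, with radiation and an immune checkpoint inhibitor. Flox+RI is the Sfrp2 fl/fl host with the same treatment, and Flox+ICI is the Sfrp2 fl/fl host with the checkpoint inhibitor alone. The labels give neither which lesion was sequenced, the inhibitor, nor how many animals a library pools, so each condition rests on 1 library and no test between conditions was possible.

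Regulatory T cells are CD4 T cells that hold other immune cells in check, and the transcription factor Foxp3 sets and keeps that programme. They take up interleukin-2 through the receptor chain CD25 (Il2ra), carry the inhibitory receptor CTLA-4 and, in tumours, often show the costimulatory receptors GITR (Tnfrsf18), OX40 (Tnfrsf4) and 4-1BB (Tnfrsf9). Cells that have settled in tissue lose the lymph node homing programme of resting T cells and gain receptors such as ST2 (Il1rl1), which binds the alarm cytokine IL-33.

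The members were sparse and shallow. They held 67713, 116721 and 54362 UMIs in the libraries labelled CKO+RI, Flox+RI and Flox+ICI, with medians of 4096.5, 1888 and 1914 UMIs a cell. The Foxp3-negative CD4 T cells they were set against, which had to hold a Cd4 UMI, numbered 50, 44 and 97 with medians of 2994, 1766 and 1964 UMIs. A Cd4 UMI was not asked of members, and 6 of 14, 8 of 41 and 5 of 19 had one. Foxp3 itself came as a single UMI in 9 of 14, 25 of 41 and 12 of 19 members, which lie at the edge of the rule. Just outside it lay 13, 19 and 12 barcodes with Foxp3 and no Cd3 UMI, and 0, 5 and 3 with both and a Cd8 UMI. Foxp3 was found in 4.90, 9.28 and 3.02% of the barcodes that met the rest of the rule, with a Cd4 UMI or not. In Cd3-negative barcodes with macrophage, keratin or neutrophil genes it was found in 0 to 0.34%, although their median depth reached 24106.5 UMIs. Intervals and floors here cover counting error alone.

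A pair of members stood apart, and results that they move are given with and without them. The first, in the library labelled CKO+RI, had 13202 UMIs in all and held 139 UMIs of stromal genes and 77 of myeloid genes, where the other members of that library held at most 6 and 10. The second, in the library labelled Flox+RI, had 5261 UMIs and held 78 myeloid UMIs, against at most 20 in the others of its library. At least 1 UMI of another lineage was seen in 14 of 14, 30 of 41 and 17 of 19 members. Sfrp2, the deleted gene, had 46, 12 and 24 UMIs over all kept barcodes of the libraries labelled CKO+RI, Flox+RI and Flox+ICI (0.286, 0.119 and 0.319 counts per 1000000 UMIs, CPM), and 0 in members. These counts do not follow the label, but 3′ tags outside the deleted part would check nothing, and the labels do not say which part was deleted. The libraries shared 31 to 37 barcode sequences in pairs, none of them members.

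The markers that the rule did not use stood well above the other CD4 T cells. All 5 were higher in regulatory T cells by edgeR's quasi-likelihood test on UMI sums per library and class, with the 3 libraries as replicates. Levels are CPM of the summed cells, in the libraries labelled CKO+RI, Flox+RI and Flox+ICI in that order. Ikzf2, which encodes the transcription factor Helios, had 1181, 1422 and 1361 CPM in regulatory T cells, against 177, 387 and 209 CPM in Foxp3-negative CD4 T cells (log2 fold change 2.40 ± 0.34 SE, adjusted p = 0.000424, edgeR). No library overlapped for Ikzf2: the lowest member sum was above the highest of the other CD4 T cells. Il2ra had 192, 479.8 and 386 CPM in regulatory T cells, against 53, 166 and 120.2 CPM in Foxp3-negative CD4 T cells (log2 fold change 1.63 ± 0.30 SE, adjusted p = 0.00442, edgeR). Its lowest value, in the library labelled CKO+RI, lay close to the highest of the CD4 T cells, and without the mixed barcode of that library it was 165 CPM, against 166 CPM in the CD4 T cells of Flox+RI. Ctla4 had 1004, 694 and 865 CPM in regulatory T cells, against 477, 535 and 187 CPM in Foxp3-negative CD4 T cells (log2 fold change 1.12 ± 0.29 SE, adjusted p = 0.0433, edgeR). Again the lowest member sum was above the highest CD4 T cell sum.

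Tnfrsf18 and Tnfrsf4 lie side by side on chromosome 4 (GRCm38, GENCODE annotation, 156026164 to 156028895 and 156013843 to 156016612, both on the + strand). Tnfrsf18 had 354, 668 and 699 CPM in regulatory T cells, against 377, 148 and 134 CPM in Foxp3-negative CD4 T cells (log2 fold change 1.40 ± 0.36 SE, adjusted p = 0.0389, edgeR). In the library labelled CKO+RI the members lay just under its other CD4 T cells, and without its mixed barcode just over them, at 422 CPM. Tnfrsf4 had 399, 1285 and 386 CPM in regulatory T cells, against 218, 138 and 285 CPM in Foxp3-negative CD4 T cells (log2 fold change 1.57 ± 0.39 SE, adjusted p = 0.0354, edgeR). Its members were above the other CD4 T cells in every library, by the most in Flox+RI. Foxp3, the gene of the rule (chromosome X, 7573644 to 7595245), had 339.7, 523 and 570.3 CPM in members. By construction it was at 0 in the Foxp3-negative CD4 T cells and in the CD8 T cells.

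Against CD8 T cells the same 5 markers were also all higher (median log2 fold change 2.92), against 1.57 over the other CD4 T cells. The calls lean on all 3 libraries. Ikzf2 was still called by edgeR with any 1 of them left out, but 2 of the 5 remained called without CKO+RI (Ikzf2 and Tnfrsf18), 2 without Flox+RI (Ikzf2 and Ctla4) and 3 without Flox+ICI (Il2ra, Ikzf2 and Tnfrsf4). The gate weighs on them too: 2 of the 5 were called where a Cd4 UMI was asked of members (Ikzf2 and Tnfrsf4), and 3 where at least 2 Foxp3 UMIs were asked (Il2ra, Ikzf2 and Tnfrsf4). With no library block edgeR called 1 (Ikzf2). With barcodes rich in stromal or myeloid UMIs left out of every class, it called all 5.

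**Figure D1:**
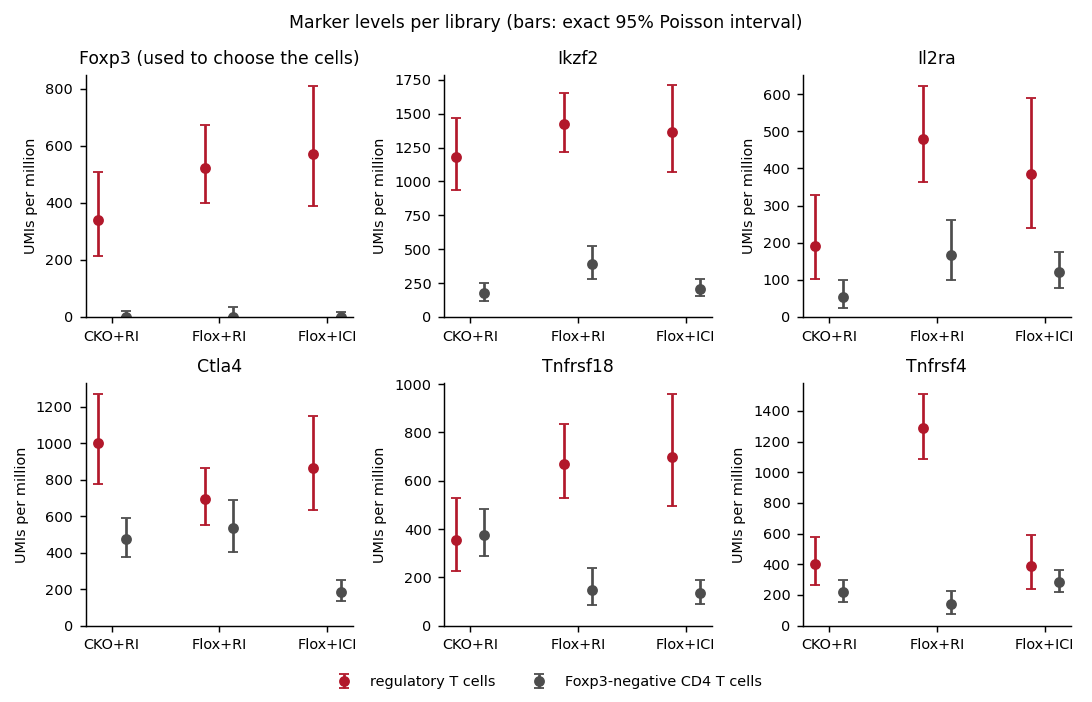
Levels of the 6 marker genes (CPM of summed UMIs, with exact 95% Poisson intervals) in regulatory T cells and in Foxp3-negative CD4 T cells of the 3 libraries. Foxp3 is at 0 in the CD4 T cells by the rule, the values of Ikzf2, Il2ra and Ctla4 do not overlap between the classes while the intervals of Il2ra and Ctla4 do, and Tnfrsf18 in CKO+RI is 354 CPM in regulatory T cells beside 377 in the others.

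The markers also met in single cells. At least 3 of the 5 were found in 12 of 14, 33 of 41 and 12 of 19 members of the libraries labelled CKO+RI, Flox+RI and Flox+ICI, against 14 of 50, 8 of 44 and 15 of 97 Foxp3-negative CD4 T cells. With every cell thinned to 1000 UMIs and shallower cells left out, the counts were 4 of 13, 24 of 38 and 12 of 19 members, against 3 of 50, 3 of 42 and 3 of 90. Thinning left the members above the other CD4 T cells in each library and moved the library labelled CKO+RI, the deepest, below the other libraries. Ikzf2 was seen in 12, 35 and 14 members, against 7, 10 and 17 of the other CD4 T cells. It was the most often seen of the 5 in CKO+RI and Flox+RI. In Flox+ICI, Ctla4 (17 of 19 members) and Tnfrsf18 (15 of 19) were seen more often. Ikzf2 and Ctla4 were found together in 9, 27 and 12 members, and Il2ra with Tnfrsf4 in 5, 20 and 5. A single member, in the library labelled CKO+RI, held none of the 5.

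**Figure D2:**
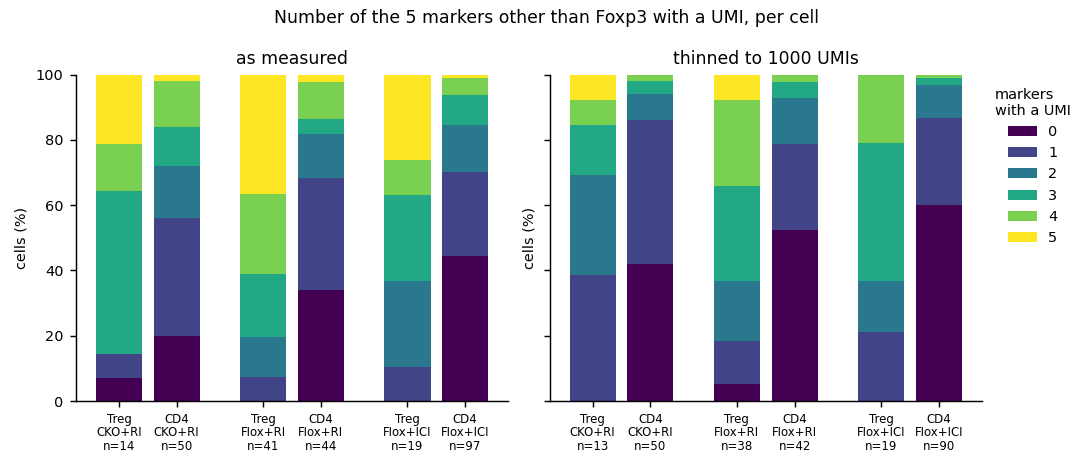
Number of the 5 markers Il2ra, Ctla4, Ikzf2, Tnfrsf18 and Tnfrsf4 found per cell, as the share of cells in each class and library. Members with at least 3 markers number 12 of 14, 33 of 41 and 12 of 19 in CKO+RI, Flox+RI and Flox+ICI, against 14 of 50, 8 of 44 and 15 of 97 Foxp3-negative CD4 T cells.

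Over all genes, edgeR called 33 of 3583 tested genes higher in regulatory T cells than in Foxp3-negative CD4 T cells (0.921%) and 67 lower (1.87%). Foxp3 and Cd4 are among them and are set by the gates. Each library weighs on these counts: 6 were higher and 13 lower without CKO+RI, 21 and 34 without Flox+RI, and 15 and 39 without Flox+ICI. Against CD8 T cells 93 were higher (2.6%) and 133 lower (3.71%), with 45 and 51 without CKO+RI, 58 and 76 without Flox+RI, and 51 and 110 without Flox+ICI. The median log2 fold change over all genes tested was -0.02 against CD4 T cells and -0.0048 against CD8 T cells. With every barcode of at least 50 stromal and myeloid UMIs left out of all classes, 43 were higher and 68 lower than in CD4 T cells. Of these, 32 and 60 are among the 33 and 67. This took out more than the 2 mixed members: CD4 T cells fell from 44 to 41 in Flox+RI and from 97 to 94 in Flox+ICI. CD8 T cells fell from 218, 152 and 249 to 213, 149 and 246.

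Among the genes highest in regulatory T cells were some that are known from this cell type and some that are not. Cmtm7, a membrane protein of the MARVEL family, had the lowest adjusted p of the named higher genes, with 620.3, 505 and 625 CPM in regulatory T cells, against 124, 138 and 93.5 CPM in Foxp3-negative CD4 T cells (log2 fold change 2.29 ± 0.27 SE, adjusted p = 4.25e-05, edgeR). The member sums were at least 3 times those of the other CD4 T cells in each library. Izumo1r, the folate receptor 4 long used to mark mouse regulatory T cells, had 207, 146 and 166 CPM in regulatory T cells, against 11.8, 18.4 and 75.7 CPM in Foxp3-negative CD4 T cells (log2 fold change 2.21 ± 0.54 SE, adjusted p = 0.035, edgeR). It was seen in 9, 13 and 7 members, and no library overlapped. Frmd5, a FERM domain protein, had 11, 18 and 4 UMIs in members, against 1, 3 and 0 in the others (log2 fold change 3.96 ± 0.95 SE, adjusted p = 0.0329, edgeR). All 4 of its UMIs in Flox+ICI came from 1 cell. Serpina3g, a serine protease inhibitor, had 266, 119.9 and 129 CPM in regulatory T cells, against 58.9, 46.1 and 31.2 CPM in Foxp3-negative CD4 T cells (log2 fold change 1.91 ± 0.40 SE, adjusted p = 0.0127, edgeR), and the tetraspanin Tspan32 had 148, 129 and 110.4 CPM in regulatory T cells, against 29.4, 27.7 and 31.2 CPM in Foxp3-negative CD4 T cells (log2 fold change 2.10 ± 0.54 SE, adjusted p = 0.0419, edgeR). Prdx4, a peroxiredoxin of the secretory pathway, had 192, 214 and 110.4 CPM in regulatory T cells, against 35.3, 36.9 and 75.7 CPM in Foxp3-negative CD4 T cells (log2 fold change 1.70 ± 0.41 SE, adjusted p = 0.0321, edgeR). Cops9, a COP9 signalosome subunit, was also higher (log2 fold change 1.73 ± 0.46 SE, adjusted p = 0.0445, edgeR).

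A further group belongs to the cell division cycle. Tyms, the thymidylate synthase, had 133, 129 and 147 CPM in regulatory T cells, against 41.2, 36.9 and 44.5 CPM in Foxp3-negative CD4 T cells (log2 fold change 1.77 ± 0.43 SE, adjusted p = 0.035, edgeR), and the mitotic gene Cdca3 had 88.6, 154 and 202 CPM in regulatory T cells, against 5.89, 73.8 and 49 CPM in Foxp3-negative CD4 T cells (log2 fold change 1.81 ± 0.47 SE, adjusted p = 0.0419, edgeR). The linker histone gene Hist1h1b had 14, 15 and 23 UMIs in members, against 4, 12 and 4 in the other CD4 T cells (log2 fold change 2.44 ± 0.54 SE, adjusted p = 0.0207, edgeR). A single cell held 13 of its 14 UMIs in CKO+RI and another 11 of 23 in Flox+ICI.

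The lowest genes in regulatory T cells were Ifng and Pde3b, neither of which had a single UMI there. Ifng, the cytokine interferon-γ, had 0 UMIs in all 74 members and 51, 14 and 43 in the Foxp3-negative CD4 T cells of CKO+RI, Flox+RI and Flox+ICI, which is at least 17.1-fold lower when 0 is read as 3 counts over the 3 libraries (adjusted p = 4.25e-05, edgeR). Pde3b, a phosphodiesterase that breaks down cyclic AMP and that is known in mice as a gene held down by Foxp3, had 0 UMIs, against 41, 12 and 24, at least 12.2-fold lower by the same floor (adjusted p = 0.00118, edgeR). Tnfsf11, the TNF family ligand RANKL, had 1 UMI in each library's members, against 14, 21 and 56 in the others, a ratio of summed levels of 0.0694 (0.0141 to 0.209) with its 95% counting interval (adjusted p = 0.00309, edgeR). Ly6c2, a surface protein of effector and memory T cells, had 3 UMIs in all members, against 32, 18 and 43, a ratio of 0.0679 (0.0138 to 0.205) (adjusted p = 0.000424, edgeR). A single UMI in members was left of Atp8b4, Mctp2, St8sia1 and Fgf13, against 20, 9 and 15, 23, 7 and 11, 13, 8 and 19 and 4, 7 and 21 UMIs in the CD4 T cells of the 3 libraries. Their ratios of summed levels were 0.0479 (0.00119 to 0.281), 0.0514 (0.00127 to 0.303), 0.0527 (0.0013 to 0.311) and 0.0658 (0.00162 to 0.394).

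**Figure D3:**
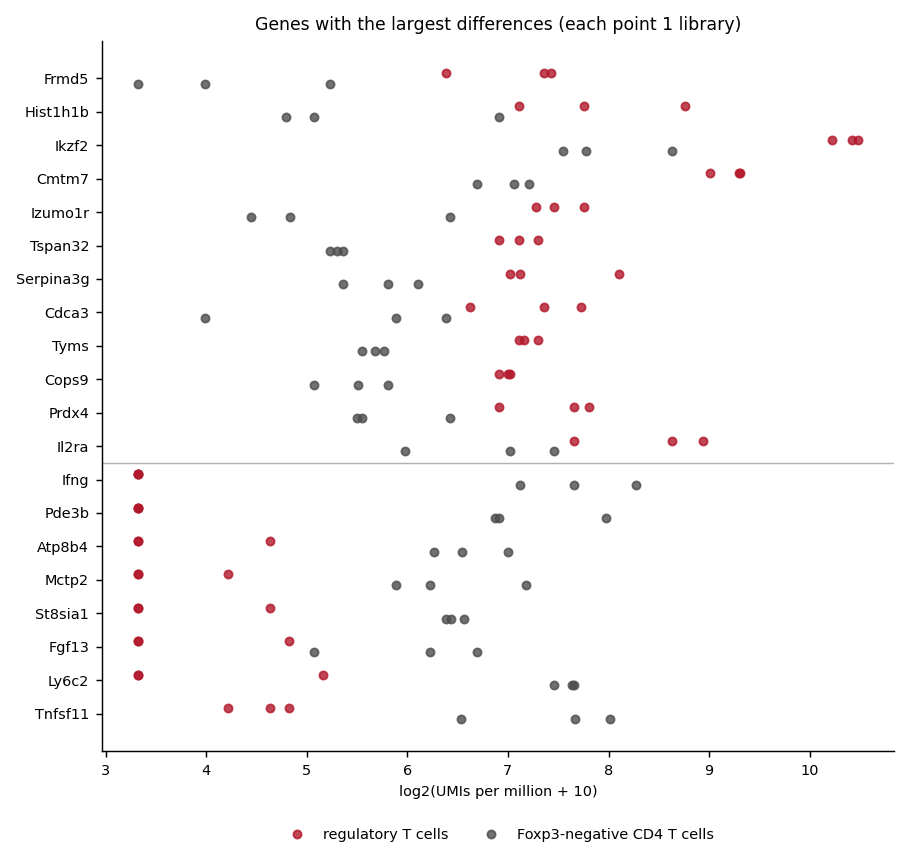
Levels (CPM, log axis) of the 12 named genes higher and the 8 named genes lower in regulatory T cells than in Foxp3-negative CD4 T cells, 1 point per library and class. Ifng and Pde3b have 0 UMIs in all members, and Cmtm7 lies between 505 and 625 CPM in members, against 93.5 to 138 CPM in CD4 T cells.

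Of these 12 higher genes, edgeR called 2 without the library labelled CKO+RI (Ikzf2 and Cmtm7), 4 without Flox+RI and 4 without Flox+ICI. Of the 8 lower genes it called 4, 4 and 5, with Ifng, Pde3b and Ly6c2 among them each time. With barcodes rich in stromal or myeloid UMIs left out of every class, 11 of the 12 (all but Cops9) and all 8 were called.

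Few further genes of regulatory T cell identity passed the test. Of 24 genes, 15 were tested and 6 were higher, none lower (median log2 fold change 0.92), beside 0.921% and 1.87% of all genes tested. The 6 were the 5 markers and Izumo1r. The list shares the 5 markers with the set above and adds Izumo1r. Itgae, the integrin chain CD103 of tissue T cells, had 73.8, 94.2 and 73.6 CPM in regulatory T cells and 0, 9.22 and 26.7 CPM in Foxp3-negative CD4 T cells and missed the threshold (log2 fold change 2.42 ± 0.79 SE, adjusted p = 0.111, edgeR). Icos, a costimulatory receptor, had 384, 488 and 276 CPM in regulatory T cells and 418, 507 and 316 CPM in Foxp3-negative CD4 T cells (log2 fold change -0.16 ± 0.24 SE, adjusted p = 0.796, edgeR), and was higher in members than in CD8 T cells (log2 fold change 1.56 ± 0.25 SE, adjusted p = 0.000412, edgeR). Capg, an actin capping protein, had 532, 985 and 662 CPM in regulatory T cells and 406, 710.2 and 361 CPM in Foxp3-negative CD4 T cells (log2 fold change 0.55 ± 0.25 SE, adjusted p = 0.264, edgeR). Nrp1, a marker of thymus-derived regulatory T cells in mice, had 207, 60.0 and 73.6 CPM in regulatory T cells and 58.9, 83 and 111 CPM in Foxp3-negative CD4 T cells. Gpr83 had no UMI in either class.

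The list of suppressive products had 10 of 21 genes tested, 1 higher and 0 lower, beside 0.921% and 1.87% of all genes tested. The higher gene was Lgals1, the lectin galectin-1, with 4194, 4172 and 2833 CPM in regulatory T cells, against 2266, 3044 and 1941 CPM in Foxp3-negative CD4 T cells (log2 fold change 0.58 ± 0.12 SE, adjusted p = 0.0127, edgeR). Il10, the inhibitory cytokine interleukin-10, had 7, 9 and 5 UMIs in members, against 0, 5 and 6 in the other CD4 T cells (log2 fold change 1.92 ± 0.76 SE, adjusted p = 0.207, edgeR). It passed against CD8 T cells (log2 fold change 3.20 ± 0.74 SE, adjusted p = 0.0105, edgeR). Tgfb1, the cytokine TGF-β1, had 222, 308 and 258 CPM in regulatory T cells and 212, 184 and 196 CPM in Foxp3-negative CD4 T cells and missed the threshold (log2 fold change 0.33 ± 0.28 SE, adjusted p = 0.615, edgeR). Gzmb, the killer protease granzyme B, had 118, 163 and 55.2 CPM in regulatory T cells and 124, 64.6 and 4.45 CPM in Foxp3-negative CD4 T cells (log2 fold change 1.18 ± 0.61 SE, adjusted p = 0.337, edgeR). Areg, the tissue repair factor amphiregulin, had too few UMIs to be tested, 0, 18 and 3 in members and 1, 2 and 5 in the others.

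Genes of effector regulatory T cells in tumours had 17 of 24 tested, 2 higher and 1 lower (median 0.36). Of all genes tested 0.921% were higher and 1.87% lower. Tnfrsf9, the costimulatory receptor 4-1BB, had 266, 677 and 497 CPM in regulatory T cells, against 235, 119.9 and 147 CPM in Foxp3-negative CD4 T cells (log2 fold change 1.63 ± 0.44 SE, adjusted p = 0.0491, edgeR), and in CKO+RI the values lay close together. Glrx, a glutaredoxin that reduces oxidised proteins, had 266, 308 and 92 CPM in regulatory T cells, against 64.7, 83 and 75.7 CPM in Foxp3-negative CD4 T cells (log2 fold change 1.54 ± 0.39 SE, adjusted p = 0.0365, edgeR). Cxcr6, the receptor for CXCL16 that holds effector T cells in tissue, was the lower one, with 0, 3 and 0 UMIs in members, against 50, 3 and 13 in the others (ratio 0.0957 (0.0193 to 0.292), adjusted p = 0.0355, edgeR). In Flox+RI it stood at 25.7 CPM in members and 27.7 CPM in CD4 T cells. Ccr8, the chemokine receptor that marks tumour regulatory T cells in mice and people, had 1, 2 and 0 UMIs in members, too few to split them by it. Batf, an AP-1 factor of effector regulatory T cells, and the adaptor Samsn1 were higher than in CD8 T cells (log2 fold change 1.23 ± 0.34 SE, adjusted p = 0.0319, and log2 fold change 1.44 ± 0.36 SE, adjusted p = 0.0188, edgeR), and were not called against the other CD4 T cells.

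Of 17 genes of resting and recirculating T cells, 12 were tested, 0 were higher and 4 lower, beside 0.921% and 1.87% of all genes tested (median -0.75). Bcl2, the survival protein, had 59.1, 34.3 and 92 CPM in regulatory T cells, against 453, 203 and 659 CPM in Foxp3-negative CD4 T cells (log2 fold change -3.06 ± 0.51 SE, adjusted p = 0.00256, edgeR), with every member sum below every CD4 T cell sum. Tcf7, the transcription factor TCF-1 of naive and memory cells, had 1, 2 and 1 UMIs in members, against 19, 9 and 45 (log2 fold change -3.15 ± 0.67 SE, adjusted p = 0.0149, edgeR). Satb1, a chromatin organiser whose repression is part of the Foxp3 programme, had 59.1, 163 and 110.4 CPM in regulatory T cells, against 212, 239.8 and 454 CPM in Foxp3-negative CD4 T cells (log2 fold change -1.56 ± 0.39 SE, adjusted p = 0.0355, edgeR). Ms4a4b, a tetraspan protein of T cells, had 133, 60.0 and 239 CPM in regulatory T cells, against 1030.0, 221 and 494 CPM in Foxp3-negative CD4 T cells (log2 fold change -2.10 ± 0.36 SE, adjusted p = 0.00307, edgeR), the lowest CD4 T cell sum lying under the highest member sum. Lef1, the partner of TCF-1, had 222, 94.2 and 184 CPM in regulatory T cells and 283, 194 and 352 CPM in Foxp3-negative CD4 T cells and missed the threshold (log2 fold change -0.91 ± 0.38 SE, adjusted p = 0.227, edgeR). The shorter list of naive CD4 T cell genes, which shares members with this one, had 5 of 8 tested with Tcf7 and Satb1 lower.

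Helper cell genes had 9 of 23 tested, 0 higher and 4 lower (median -1.51), beside 0.921% and 1.87% of all genes tested. Beside Ifng and Tnfsf11 these were Stat4, the transducer of interleukin-12 signals, with 148, 137 and 129 CPM in regulatory T cells, against 365, 295 and 503 CPM in Foxp3-negative CD4 T cells (log2 fold change -1.51 ± 0.30 SE, adjusted p = 0.00897, edgeR), and Tnfsf8, the CD30 ligand, with 0, 0 and 5 UMIs, against 26, 9 and 46 (log2 fold change -2.75 ± 0.71 SE, adjusted p = 0.0409, edgeR). The 5 UMIs of Tnfsf8 in members were all in Flox+ICI. Of chemotactic receptors 8 of 19 were tested, and Cxcr6 and Gpr183, the receptor for oxysterols, were lower, Gpr183 with 59.1, 60.0 and 18.4 CPM in regulatory T cells, against 318, 119.9 and 93.5 CPM in Foxp3-negative CD4 T cells (log2 fold change -1.78 ± 0.43 SE, adjusted p = 0.0325, edgeR).

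Receptors of the TNF family and the NF-κB pathway had 17 of 23 genes tested and 3 higher, Tnfrsf4, Tnfrsf9 and Tnfrsf18, none lower (median 0.09). Of all genes tested 0.921% were higher and 1.87% lower. The called members are receptors, and none of the tested signal transducers or NF-κB subunits passed: Traf1 had 88.6, 266 and 294 CPM in regulatory T cells and 288, 111 and 142 CPM in Foxp3-negative CD4 T cells, and Rel 29.5, 154 and 276 CPM in regulatory T cells and 153, 175 and 267 CPM in Foxp3-negative CD4 T cells. Of checkpoint genes 10 of 17 were tested and Ctla4 was higher. Pdcd1, the receptor PD-1, had 29.5, 119.9 and 92 CPM in regulatory T cells and 76.5, 73.8 and 57.9 CPM in Foxp3-negative CD4 T cells (log2 fold change 0.42 ± 0.54 SE, adjusted p = 0.757, edgeR). The IL-2 and STAT5 list had 9 of 16 tested, with Il2ra higher and Bcl2 lower. The cell death list had 14 of 16 tested, with Bcl2 lower. Neither the T cell receptor response (14 of 21 tested), the interferon response (19 of 34), MHC class I (8 of 9), stress (17 of 19), glycolysis (13 of 17) nor the lipid genes (4 of 18) had a gene past the threshold.

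Cell cycle genes had 16 of 22 tested, 2 higher and 0 lower (median 1.04), beside 0.921% and 1.87% of all genes tested. Stmn1, a microtubule regulator abundant in dividing cells, had 724, 539.7 and 919.8 CPM in regulatory T cells, against 159, 489 and 303 CPM in Foxp3-negative CD4 T cells (log2 fold change 1.21 ± 0.30 SE, adjusted p = 0.0354, edgeR), and the other was Tyms. Their summed level was 4135, 5192 and 4728 CPM in members, against 1536, 3689 and 1977 CPM in the other CD4 T cells. The proliferation gene Mki67 had 103, 394 and 313 CPM in regulatory T cells and 11.8, 295 and 120.2 CPM in Foxp3-negative CD4 T cells and missed the threshold (log2 fold change 1.09 ± 0.44 SE, adjusted p = 0.214, edgeR). A UMI of Mki67 or Top2a was found in 5 of 14, 17 of 41 and 6 of 19 members, against 10 of 50, 15 of 44 and 23 of 97 CD4 T cells. Thinned to 1000 UMIs, the counts were 1 of 13, 11 of 38 and 4 of 19, against 2 of 50, 10 of 42 and 14 of 90. Members with such a UMI were deeper, with medians of 4780, 4621 and 4344 UMIs, against 3107, 1293 and 1730 in those without, and the part of depth was not tested.

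Genes of other cell types were present in the sums of both classes. Among all genes tested, 0.921% were called higher in members and 1.87% lower. The 16 myeloid genes summed to 2156, 2613 and 1564 CPM in members, against 1348, 6253 and 2693 CPM in the other CD4 T cells, with 1 of 9 tested called, Lyz2, lower. Without the 2 mixed barcodes the sums in members were 1266, 2037 and 1564 CPM. The CD4 T cell sums still hold such barcodes: without them those cells would number 50, 41 and 94 in place of 50, 44 and 97. Only in CKO+RI are both sides alike, with 1266 CPM in members against 1348 CPM. Of the myeloid genes 12, 15 and 12 were found in members, and Csf1r, the receptor that defines macrophages, was at 0. The 12 neutrophil genes summed to 207, 274 and 515 CPM, against 194, 507 and 3303 CPM, with S100a9 lower and Ly6g at 0 in members. Leaving out the mixed barcode put the neutrophil sum of members in CKO+RI at 110.1 CPM. The 10 epithelial genes summed to 738, 386 and 1049 CPM, against 777, 397 and 3966 CPM, with the lung surfactant gene Sftpc lower. Of these genes the gates held Krt8 and Krt18 together to at most 2 UMIs a barcode in both classes. Cytotoxic and natural killer genes summed to 649.8, 411 and 313 CPM, against 2896, 1107 and 1251 CPM, with Nkg7 and Ccl5 lower and Ncr1 at 0 in members. That list includes Cd8a and Cd8b1, which the gates set to 0 in both classes. The stromal genes summed to 2333, 343 and 368 CPM, against 253, 239.8 and 561 CPM, with 349, 305 and 368 CPM in members once the mixed barcodes were left out. In γδ T cell and innate lymphoid genes the sums were 0, 8.57 and 0 CPM, against 5.89, 101 and 35.6 CPM. Of B cell genes only Ighm was tested and was higher, with 325, 283 and 294 CPM in regulatory T cells, against 100.1, 46.1 and 26.7 CPM in Foxp3-negative CD4 T cells (log2 fold change 2.32 ± 0.40 SE, adjusted p = 0.00307, edgeR). The B cell genes Ms4a1 and Pax5 were at 0 in both classes. The part of these other cells in the gene results was not tested.

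The share of regulatory T cells was highest in Flox+RI. It was 0.155% (0.0847 to 0.26, 14 of 9036) of kept barcodes in the library labelled CKO+RI, 0.314% (0.225 to 0.425, 41 of 13073) in Flox+RI and 0.178% (0.107 to 0.277, 19 of 10692) in Flox+ICI, with exact 95% binomial intervals. Of Cd3-positive barcodes it was 1.54% (0.842 to 2.56, 14 of 912), 4.93% (3.56 to 6.63, 41 of 831) and 1.76% (1.06 to 2.74, 19 of 1079). Among CD4 T cells, that is members plus the Foxp3-negative CD4 T cells, it was 21.9% (12.5 to 34, 14 of 64), 48.2% (37.3 to 59.3, 41 of 85) and 16.4% (10.2 to 24.4, 19 of 116). Set beside CD8 T cells, members made up 6.03% (3.34 to 9.92, 14 of 232), 21.2% (15.7 to 27.7, 41 of 193) and 7.09% (4.32 to 10.8, 19 of 268) of both. With 1 library a condition these are differences between libraries.

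A Cd4 UMI was asked of the Foxp3-negative CD4 T cells and not of members. Where it was asked of both, the shares of CD4 T cells were 10.7, 15.4 and 4.90%, with ratios of 0.696 (95% interval 0.199 to 2.29) for CKO+RI over Flox+RI and 3.14 (95% interval 0.905 to 12.2) for Flox+RI over Flox+ICI, both intervals holding 1.

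The ratio of CKO+RI over Flox+RI was 0.494 (95% interval 0.249 to 0.925) of kept barcodes, 0.311 (95% interval 0.157 to 0.583) of Cd3-positive ones and 0.454 (95% interval 0.228 to 0.849) of CD4 T cells. Flox+RI over Flox+ICI gave 1.76 (95% interval 1.0 to 3.22), 2.80 (95% interval 1.59 to 5.11) and 2.94 (95% interval 1.67 to 5.37). With every barcode thinned to 1000 UMIs before the rule was applied, the ratios among CD4 T cells were 0.388 (95% interval 0.112 to 1.10) and 2.99 (95% interval 1.29 to 7.30). Where a Cd4 UMI was also asked of members, few cells remained and the ratios of kept barcodes were 1.09 (95% interval 0.31 to 3.57) and 1.31 (95% interval 0.377 to 5.08). With all barcodes as rich in stromal or myeloid UMIs left out, the ratios among CD4 T cells were 0.418 (95% interval 0.205 to 0.798) and 2.94 (95% interval 1.66 to 5.37). Of kept barcodes they were 0.656 (95% interval 0.322 to 1.25) and 1.82 (95% interval 1.03 to 3.32). With called doublets removed, the kept-barcode ratios were 0.528 (95% interval 0.264 to 1.001) and 1.63 (95% interval 0.912 to 2.99). With at least 2 Foxp3 UMIs they were 0.452 (95% interval 0.13 to 1.29) and 1.87 (95% interval 0.728 to 5.37). Of Cd3-positive barcodes, the intervals of these settings left out 1, except where a Cd4 UMI was asked of members. That setting gave 0.683 (95% interval 0.195 to 2.25) and 2.08 (95% interval 0.599 to 8.07). Thinned to 2000 UMIs, the Cd3-positive ratios were 0.189 (95% interval 0.0515 to 0.590) and 2.48 (95% interval 0.909 to 7.11), the second interval holding 1. All kept barcodes of the library labelled CKO+RI had a median of 14467.5 UMIs, against 2923 in Flox+RI and 3254.5 in Flox+ICI. Thinned to 1000 UMIs, the ratios of kept barcodes were 0.313 (95% interval 0.0903 to 0.884) and 1.75 (95% interval 0.757 to 4.28).

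**Figure D4:**
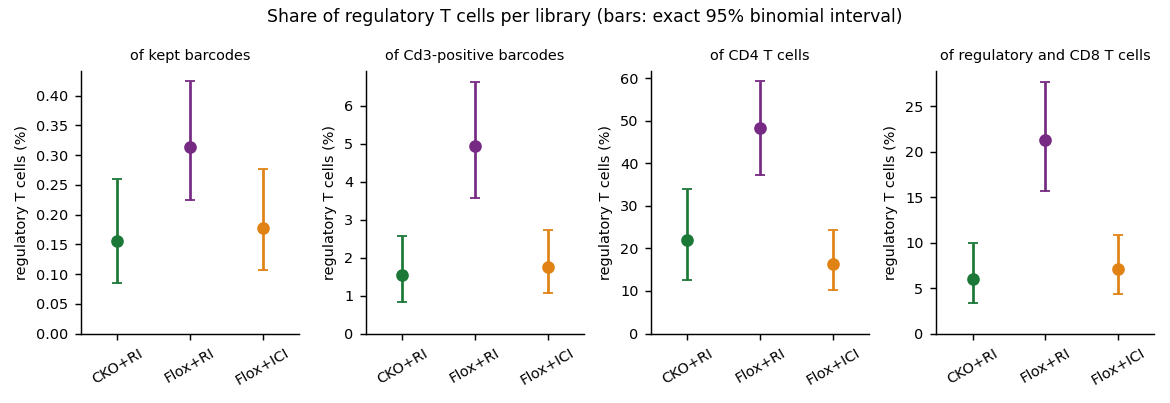
Share of regulatory T cells in each library, as percent of kept barcodes, of Cd3-positive barcodes, of CD4 T cells and of regulatory plus CD8 T cells, with exact 95% binomial intervals. Flox+RI is the highest in each panel, at 48.2% of CD4 T cells, against 21.9% in CKO+RI and 16.4% in Flox+ICI.

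Within regulatory T cells the gene levels of the libraries were set side by side, with ratios and exact 95% counting intervals in place of a test. Of 1645 genes with at least 20 UMIs over both libraries, 119 were at least 2-fold higher in CKO+RI than in Flox+RI (7.23%) and 154 at least 2-fold lower (9.36%). Of 1543 genes, 95 were at least 2-fold higher in Flox+RI than in Flox+ICI (6.16%) and 104 at least 2-fold lower (6.74%).

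Tnfrsf4 was highest in the members of Flox+RI, and Tnfrsf9 and Tnfrsf18 had the lowest levels in those of the library labelled CKO+RI. Tnfrsf4 had 27, 150 and 21 UMIs in the libraries labelled CKO+RI, Flox+RI and Flox+ICI, 399, 1285 and 386 CPM, found in 7, 33 and 6 of 14, 41 and 19 members. The ratio was 0.31 (95% interval 0.198 to 0.47) for CKO+RI over Flox+RI and 3.33 (95% interval 2.10 to 5.53) for Flox+RI over Flox+ICI. Its ratios in Foxp3-negative CD4 T cells were 1.57 (95% interval 0.843 to 3.09) and 0.486 (95% interval 0.257 to 0.862). The high level in Flox+RI was thus that of its regulatory T cells, its other CD4 T cells having the lowest of the 3 libraries. Tnfrsf18 and Tnfrsf9 had 354, 668 and 699 CPM and 266, 677 and 497 CPM in the members of the 3 libraries, both lowest in CKO+RI. Between the Flox libraries the levels of Tnfrsf18 were close, while Tnfrsf9 was higher in Flox+RI than in Flox+ICI. The ratios of Tnfrsf18 and Tnfrsf9 for CKO+RI over Flox+RI were 0.53 (95% interval 0.321 to 0.847) and 0.393 (95% interval 0.221 to 0.661), against 2.55 and 1.96 in the CD4 T cells. The mixed barcode of CKO+RI held 1 Tnfrsf18 UMI among its 13202 UMIs. Without it the Tnfrsf18 level of CKO+RI was higher, as given above, and the ratio lies nearer 1. No interval is given for that case. Il2ra had a ratio of 0.4 (95% interval 0.201 to 0.741) with 0.319 in CD4 T cells, and Ctla4 the opposite, 1.45 (95% interval 1.03 to 2.02) with 0.891.

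Of 14 genes of the TNF receptor and NF-κB list measured in CKO+RI over Flox+RI, 5 were at least 2-fold lower and 0 at least 2-fold higher, beside 9.36% and 7.23% of all genes. The intervals of 0 lay above 1, beside 7.54% of all genes, and those of 6 below 1, beside 10.3%: Tnfrsf4, Tnfrsf9, Tnfrsf18, Traf1, an adaptor of these receptors, Rel, an NF-κB subunit, and Bcl2l1, the survival protein BCL-XL. These counts keep the 2 mixed barcodes. Traf1 had 88.6, 266 and 294 CPM and Rel 29.5, 154 and 276 CPM in the members of CKO+RI, Flox+RI and Flox+ICI. The list summed to 3500.1, 5655 and 5298 CPM, a ratio of 0.619 (0.531 to 0.719) for CKO+RI over Flox+RI with 1.10 in the CD4 T cells (0.617 in members without the 2 mixed barcodes), and 1.07 (0.928 to 1.23) for Flox+RI over Flox+ICI with 0.92. The effector factor Batf had 88.6, 308 and 313 CPM and a ratio of 0.287 (95% interval 0.0989 to 0.688) for CKO+RI over Flox+RI, and Samsn1 had 103, 334 and 313 CPM and 0.309 (95% interval 0.117 to 0.7).

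Il1rl1, the IL-33 receptor ST2 (chromosome 1, 40429570 to 40465415, + strand), was found in members of Flox+RI only, with 27 UMIs in 18 of 41 cells and 0 UMIs in the 14 cells of CKO+RI and the 19 of Flox+ICI. A count of 0 allows up to 44.3 CPM in CKO+RI and 55.2 CPM in Flox+ICI, beside 231 CPM in Flox+RI. The interval of the ratio was 0 to 0.252 for CKO+RI over Flox+RI and began at 3.18 for Flox+RI over Flox+ICI. In the same library the gene was also present outside regulatory T cells. It had 0, 101 and 17.8 CPM in the Foxp3-negative CD4 T cells of the 3 libraries, 15.6, 61.2 and 4.67 CPM in CD8 T cells and 83, 385 and 71.1 CPM over all kept barcodes. RNA of other cells in the droplets was not tested as a source of these UMIs. Without the myeloid-rich barcode, which held 4 of them, 23 UMIs remained.

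The 18 members of Flox+RI with an Il1rl1 UMI were deeper, with a median of 4113.5 UMIs, against 1344 in the 23 without. Glrx had 456 CPM in the Il1rl1-positive cells, against 103 CPM in the Il1rl1-negative cells, a ratio of 4.44 (95% interval 1.71 to 14.6). Lgals1 had 4750.3 CPM in the Il1rl1-positive cells, against 3366 CPM in the Il1rl1-negative cells, a ratio of 1.41 (95% interval 1.17 to 1.71). Tnfrsf9 had 515 CPM in the Il1rl1-positive cells, against 903 CPM in the Il1rl1-negative cells, a ratio of 0.57 (95% interval 0.355 to 0.909), and Capg 809 CPM in the Il1rl1-positive cells, against 1231 CPM in the Il1rl1-negative cells, a ratio of 0.657 (95% interval 0.447 to 0.963). The intervals of Foxp3, Il2ra, Ctla4, Ikzf2, Tnfrsf18 and Tnfrsf4 all held 1. The cells share 1 library, so these intervals speak for its UMIs and not for animals.

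Glycolytic enzymes were higher in the members of Flox+RI than in those of either other library. The 16 genes of the list in the matrices summed to 6498, 10786 and 5978 CPM in CKO+RI, Flox+RI and Flox+ICI, a ratio of 0.602 (0.539 to 0.672) for CKO+RI over Flox+RI and of 1.80 (1.60 to 2.04) for Flox+RI over Flox+ICI. The Foxp3-negative CD4 T cells showed 0.913 and 1.98, so that the second ratio was close to theirs. Without the 2 mixed barcodes the first was 0.655. Of 9 genes measured, 6 had intervals below 1 in the first comparison, beside 10.3% of all genes, and 6 had intervals above 1 in the second, beside 6.22%. Ldha, the lactate dehydrogenase that makes lactate, had 827, 1448 and 607 CPM, with ratios of 0.571 (95% interval 0.414 to 0.777) and 2.39 (95% interval 1.63 to 3.58). Gapdh had 2422, 4318 and 2520.1 CPM and the pyruvate kinase Pkm 1004, 2056 and 1140.5 CPM. Eno1, an enolase, ran the other way, with 532, 308 and 313 CPM and a ratio of 1.72 (95% interval 1.06 to 2.82) for CKO+RI over Flox+RI. Past 2-fold were 2 of 9 lower in CKO+RI than in Flox+RI, beside 9.36% of all genes, and 3 of 9 higher in Flox+RI than in Flox+ICI, beside 6.16%.

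The resting T cell genes were lowest in the members of Flox+RI. The list summed to 2954, 1679 and 2649 CPM in the members of CKO+RI, Flox+RI and Flox+ICI, and to 2605 CPM in CKO+RI without its mixed barcode. The ratio was 1.76 (1.44 to 2.15) for CKO+RI over Flox+RI, 1.55 without the 2 mixed barcodes and 1.23 in the CD4 T cells. For Flox+RI over Flox+ICI it was 0.634 (0.509 to 0.792), with 0.66 in the CD4 T cells. Of 9 genes measured for CKO+RI over Flox+RI, 4 were at least 2-fold higher and 1 lower, beside 7.23% and 9.36% of all genes. Klf2, which keeps T cells recirculating, had 266, 42.8 and 92 CPM, a ratio of 6.21 (95% interval 2.22 to 21.4) with 1.02 in the CD4 T cells. Lef1 had 222, 94.2 and 184 CPM, a ratio of 2.35 (95% interval 1.01 to 5.66). All 16 UMIs of Bach2 in CKO+RI came from 1 member, and 43 of the 48 of Igfbp4 from the stromal-rich barcode.

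Of the genes furthest above Flox+RI in CKO+RI, Gpx3, Sparcl1, Igfbp7, Tmem176a and Fn1, nearly all UMIs came from that barcode, with 42 of 43, 23 of 26, 23 of 31, 50 of 51 and 47 of 48. Without the 2 mixed barcodes, which were set aside after the data had been seen, the 5 furthest were Rgs1, Hist1h2ap, Itm2b, Inpp4b and Mir142hg. Rgs1, a brake on chemokine receptor signals, had 660.4 CPM in CKO+RI, against 62.8 CPM in Flox+RI, a ratio of 10.5 (95% interval 4.62 to 28). With them it was 8.87 (95% interval 3.89 to 23.6), and 4.96 in the CD4 T cells. Inpp4b, a phosphoinositide phosphatase, had 1376 CPM in CKO+RI, against 529 CPM in Flox+RI, and the membrane protein gene Itm2b had 1064 CPM, against 341 CPM.

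Lowest in CKO+RI beside Il1rl1 and Tnfrsf4 were Tyrobp, Ptprj and Smc1a. Tyrobp, an adaptor of myeloid and natural killer cells, had 1, 34 and 3 UMIs in the members of CKO+RI, Flox+RI and Flox+ICI. It belongs to the myeloid list, whose sum in members had a ratio of 0.825 (0.673 to 1.01) for CKO+RI over Flox+RI, and of 0.622 (0.468 to 0.817) without the 2 mixed barcodes. Without the mixed barcodes Etv6 and Hivep2 took the places of Ptprj and Smc1a.

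Between Flox+RI and Flox+ICI the furthest genes, besides Il1rl1, Tnfrsf4, Tyrobp and Ldha, were Gimap1, a GTPase of lymphocyte survival, higher in Flox+RI, and Slc38a6, Resf1, Foxn3, Dip2b and Fbxo11, lower. Gimap1 had 488 CPM in Flox+RI, against 147 CPM in Flox+ICI, a ratio of 3.32 (95% interval 1.58 to 8.05). Foxn3, a forkhead repressor, had 274 CPM in Flox+RI, against 919.8 CPM in Flox+ICI, a ratio of 0.298 (95% interval 0.185 to 0.474). Single members of Flox+ICI held 23 of the 26 UMIs of Slc38a6 and 22 of the 37 of Resf1.

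**Figure D5:**
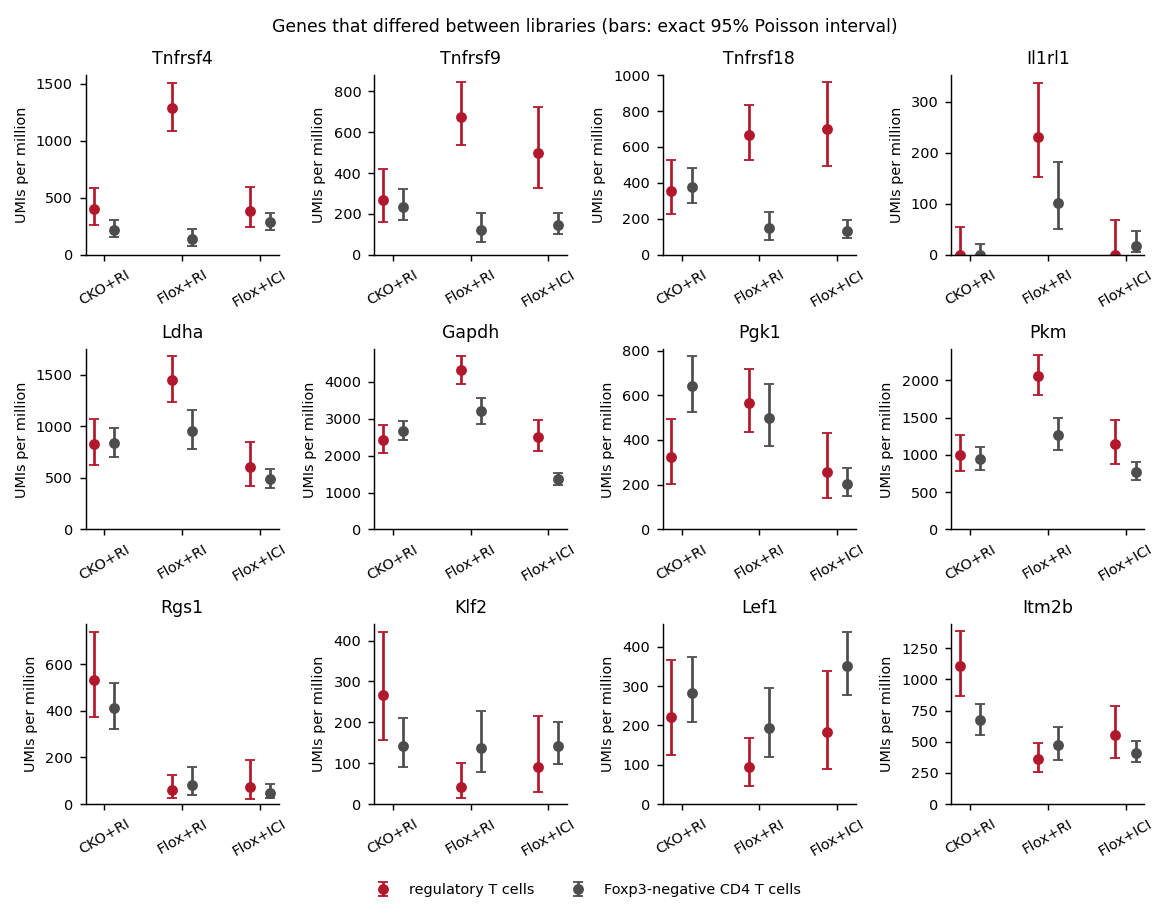
Levels (CPM of summed UMIs, exact 95% Poisson intervals) in regulatory T cells and in Foxp3-negative CD4 T cells of each library. The genes are Tnfrsf4, Tnfrsf9, Tnfrsf18, Il1rl1, Ldha, Gapdh, Pgk1, Pkm, Rgs1, Klf2, Lef1 and Itm2b. Tnfrsf4 is at 399, 1285 and 386 CPM in the regulatory T cells of CKO+RI, Flox+RI and Flox+ICI.

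With the 2 mixed barcodes kept, ratios nearer 1 were found for MHC class I, interferon, stress, cell cycle and checkpoint genes. MHC class I genes summed to 6424, 4429 and 5022 CPM in the members of CKO+RI, Flox+RI and Flox+ICI, a ratio of 1.45 (1.27 to 1.65) for CKO+RI over Flox+RI with 1.85 in CD4 T cells. The interferon list gave 1.23 (1.08 to 1.40) with 1.53, and the dissociation stress list 1.22 (1.08 to 1.37) with 1.23. Without the 2 mixed barcodes the stress ratio of members was 1.05 (0.916 to 1.20), an interval that holds 1. Cell cycle genes gave 0.796 (0.689 to 0.919) with 0.416 for CKO+RI over Flox+RI (0.913 (0.788 to 1.06) without the mixed barcodes), and 1.10 (0.948 to 1.28) with 1.87 for Flox+RI over Flox+ICI. Checkpoint genes gave 0.976 (0.785 to 1.21) and 1.02 (0.815 to 1.30), the first becoming 1.13 (0.906 to 1.41) without the mixed barcodes. Each of these ratios sets 1 library against 1 other.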

How the data were processed

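The deposited files hold raw UMI counts, 1 matrix of 32285 genes per library. The authors made these counts with Cell Ranger 6.0 per the submitters' processing notes (6.1.2 per the file headers), on mm10 (GRCm38). The notes also name Seurat 5.0.3 without a step. Barcodes with under 200 genes or over 20% mitochondrial UMIs were left out. Scrublet in scanpy 1.11.5 (0.8% expected per 1000 barcodes) called 0, 4 and 0 members doublets in CKO+RI, Flox+RI and Flox+ICI. They stayed in, and leaving out called doublets was an alternative.

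UMIs were summed per library for regulatory T cells, Foxp3-negative CD4 T cells (Foxp3 0, Cd4 and Cd3 at least 1, Cd8 0, same C1q and keratin limits) and CD8 T cells (Foxp3 0, Cd8 at least 1). The 9 sums were fitted in edgeR 4.0.16 (R 4.3.3; TMM, low-count filter, quasi-likelihood, library as block) with Benjamini-Hochberg adjustment over all genes tested and a threshold of 0.05. Nothing says that the libraries are separate animals, so p-values measure the spread between these 3 libraries. Each SE was computed as the absolute log2 fold change over the square root of the quasi-likelihood F statistic. The fit was tested on simulated data. Between libraries, CPM carry exact Poisson intervals and ratios exact conditional binomial ones, all at 95%. DESeq2 1.42.0, other filters and depths, other gates and each library left out were the alternatives.

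Named against CD4 T cells were the 12 highest and 8 lowest genes by fold change among those called with 1 direction in all 3 libraries. Between libraries these were the 5 furthest on each side by the interval bound nearest 1, with at least 20 UMIs and a UMI in at least 10% of members. Gene lists, the rule and the members were chosen with earlier results of these data known. Other genes named in the text come from the lists. Gene positions come from the GENCODE annotation of GRCm38, which covered 32158 of the 32285 genes.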

Additional observations from a re-analysis of the deposited data

Results flagged for a closer look

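For 5 genes the ratios of 2 groups lay on opposite sides of 1 with intervals that leave out 1. The differences were not tested. Hist1h1b in Flox+RI over Flox+ICI was 0.304 (0.147 to 0.608) in regulatory T cells and 6.22 (1.88 to 26.4) in Foxp3-negative CD4 T cells. Tnfrsf4 in Flox+RI over Flox+ICI was 3.33 (2.10 to 5.53) in regulatory T cells and 0.486 (0.257 to 0.862) in the CD4 T cells. Tnfrsf18 in CKO+RI over Flox+RI was 0.53 (0.321 to 0.847) in regulatory T cells and 2.55 (1.46 to 4.73) in the CD4 T cells. The first of these Tnfrsf18 ratios lies nearer 1 without the mixed barcode of CKO+RI, and no interval is given for that case.

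Tmem176a in CKO+RI over Flox+RI was 22 (8.08 to 83.7) in regulatory T cells and 0.0517 (0.0102 to 0.163) in the CD4 T cells. Its level in regulatory over Foxp3-negative CD4 T cells was 42.7 (13.8 to 214) in CKO+RI, 0.1 (0.026 to 0.28) in Flox+RI and 0 (0 to 0.794) in Flox+ICI. Fn1 in CKO+RI over Flox+RI was 13.8 (5.89 to 39.4) in regulatory T cells and 0.295 (0.0918 to 0.831) in the CD4 T cells. In the library labelled CKO+RI, 50 of 51 Tmem176a UMIs and 47 of 48 Fn1 UMIs of members came from the 1 barcode rich in stromal genes.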

How the results depend on the processing

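Against Foxp3-negative CD4 T cells, the 33 higher and 67 lower genes became 19 and 29 with DESeq2, 56 and 109 with no low-count filter, 4 and 13 with no library block, and 8 and 26 with at least 2 Foxp3 UMIs. With a Cd4 UMI needed in members 12 were higher, and with cells thinned to 1000 UMIs 40 were lower. Leaving out 1 library gave 6 to 21 higher and 13 to 39 lower. Against CD8 T cells, where all alternatives were added after the data had been seen, the 93 higher and 133 lower became 60 and 59 with DESeq2, 143 and 269 unfiltered, 39 and 48 with no block, 61 and 59 thinned, and 46 and 77 with 2 Foxp3 UMIs. With a Cd4 UMI 40 were higher, and leaving out 1 library gave 45 to 58 higher and 51 to 110 lower. Each call of the 41 named and list genes against CD4 T cells kept its direction in every alternative that gave a value: 355 values stayed past the threshold and 173 were no longer past it. These fits have fewer cells, UMIs or samples, or another test, and no further cause was tested.

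Between libraries, 119 higher and 154 lower genes in CKO+RI over Flox+RI became 14 and 28 thinned, 62 and 92 with 2 Foxp3 UMIs, and 28 and 33 with a Cd4 UMI. The 95 and 104 of Flox+RI over Flox+ICI became 29 and 22, 37 and 24, and 19 and 23, and 26 and 14 with barcodes that hold UMIs of other lineages left out. Fewer UMIs leave fewer genes at the minimum of 20. The share ratio of CKO+RI over Flox+RI with a Cd4 UMI needed was 1.09 of kept barcodes, past 1, and 0.683 of Cd3-positive ones, and 0 of Cd3-positive ones with other lineages left out, as no member of CKO+RI was left. The list ratios of CKO+RI over Flox+RI crossed 1 for cell cycle (1.02 thinned) and interferon (0.915 with a Cd4 UMI). On the log2 scale, Tmem176a turned to -0.29 with a Cd4 UMI and -0.55 without the 2 mixed barcodes, Fn1 to -3.99 with a Cd4 UMI, Slc38a6 to 0.59 and Resf1 to 0.086 with 2 Foxp3 UMIs, Dip2b to 0.50 with a Cd4 UMI, and Tyrobp to -0.058 with other lineages left out. The cause was not tested. The comparison of Ccr8-positive members and its alternatives were not run, since 1, 1 and 0 members held a Ccr8 UMI and 10 were asked. The class comparison with other lineages left out was not run, as CKO+RI had no member. No paired analysis was possible because each condition has 1 library.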
